A study of Homo sapiens with 30 samples.

Results

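The response to enzalutamide that remained in the presence of JQ-1 was measured in MR49F cells by comparing 3 samples that received both compounds with 3 samples that received JQ-1 alone. These 6 samples, of 30 in the study, were chosen by the treatment in their labels and by no measured value. All 6 were MR49F cells kept for 72 h in medium with 10% charcoal-stripped serum, which is low in androgens, and then treated for 24 h. JQ-1 (JQ1 in the labels) was given at 500 nM and enzalutamide, also known as MDV3100, at 10 μM. The same comparison without JQ-1, 3 samples with enzalutamide against 3 with vehicle in the same serum, served as the reference, and it shares no sample with the first. The labels give a total of 96 h without enzalutamide before treatment, so all 4 groups had passed through drug withdrawal. Vehicle was 0.1% DMSO and 0.1% ethanol. Other groups of the study held DHT-treated MR49F cells and both MR49F and the parental V16D line in full serum.

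In prostate cells androgens raise genes of secretion and differentiation such as KLK3, which encodes prostate-specific antigen. Enzalutamide is an antiandrogen, and MR49F cells are a line derived from LNCaP tumors that grew under it. BET proteins bind acetylated histones and help RNA polymerase to leave the promoter, and JQ-1 displaces them from chromatin. The comparison therefore asks which enzalutamide-driven changes still occur when BET proteins are inhibited. As a model it is limited to a single resistant line at 1 dose and 1 time.

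MR49F libraries carried the defining genes of luminal prostate cells. The summed FPKM, an abundance scaled to transcript length and library size, of 8 luminal markers was 1120 to 1290 in the 12 samples of the 4 groups, and the 4 basal markers TP63, KRT5, KRT14 and KRT15 stayed under 1 FPKM in every sample. Of 7 stromal, endothelial and leukocyte markers, 5 were under 1 FPKM throughout. Of 6 neuroendocrine markers, 4 were under 1 FPKM throughout, but SYP and ENO2 were not, and the 6 summed to 23.2 to 35.4 FPKM. Relative to vehicle, JQ-1 lowered 5 of the 8 luminal markers and raised 1, at the threshold given below (limma). The response to JQ-1 itself was visible in HEXIM1, an inhibitor of the elongation factor P-TEFb that rises upon BET inhibition. HEXIM1 was at 86.9 ± 2.89 FPKM with JQ-1 and at 13.5 ± 1.00 FPKM with vehicle (SD, n = 3). It belonged to a list of 5 genes for this check, which also held MYC. Of these 5, 2 were higher and 3 lower with JQ-1 than with vehicle at the threshold given below (limma). The shares of all genes tested were 32.5% higher and 42.6% lower. Between 982130 and 1307374 reads were counted on genes in the samples with both compounds, and between 1486753 and 1813197 in those with JQ-1, which was only 5.13% to 7.66% of assigned reads over the stripped-serum libraries against 73.0% to 77.8% in full serum. The FPKM were made without these counts and were therefore taken as the main measure, and the counts as the second. The labels describe wells plated in triplicate and the methods describe wells combined in pairs for each biological replicate, so p-values measure the spread between these samples, which may be technical.

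With JQ-1 present, enzalutamide changed 1865 of 11747 tested genes (15.9%), of which 750 were higher and 1115 lower (limma on log2(FPKM + 1), Benjamini-Hochberg adjusted p of at most 0.05, called below). Most of these changes were small, with a median size of 0.23 on the log2 scale. Only 37 genes changed at least 2-fold on this scale, and 34 of those were higher. Without JQ-1, enzalutamide changed 4709 of 12178 genes (38.7%), of which 2356 were higher and 2353 lower, and 86 changed at least 2-fold, 73 of them higher. The difference between both responses, tested as an interaction over the 12 samples, was past the threshold for 2389 of 12454 genes (19.2%). The count with JQ-1 depended on single libraries: it was 897 without replicate 2 of the JQ-1 group, 1020 without replicate 3 of that group and 1108 without replicate 1 of the group with both compounds. The share of called genes that were higher was 40.2% with all samples and 49.4%, 50.9% and 46.8% in these 3 cases.

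Of the genes that enzalutamide raised without JQ-1, 2211 were also tested with JQ-1, and 485 of them (21.9%) were called higher again. Among all 11514 genes tested in both comparisons 6.42% were called higher with JQ-1, so the share was above the background. The 485 made up 65.6% of the 739 genes called higher with JQ-1. Of the 2216 genes lowered without JQ-1, 553 (25%) were called lower again, against 9.51% of all genes. The opposite direction was called for 49 raised and 32 lowered genes. In all, 1038 genes kept a called change in the same direction, a number that was 609 without replicate 2 and 684 without replicate 3 of the JQ-1 group.

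Genes called without JQ-1 had a smaller median response with it. The median log2 difference of the raised genes was 0.28 without JQ-1 and 0.06 with it, beside −0.03 for all genes tested. For the lowered genes it was −0.25 and −0.10. The samples without JQ-1 both chose the genes and gave these medians, here and by size below. Part of each fall is therefore fixed in advance. Of the 73 genes raised at least 2-fold without JQ-1, 55 also passed the FPKM filter with JQ-1, and genes with little FPKM under JQ-1, such as ADAM7 and ST6GALNAC1, are not among them. Of these 55, 44 were called higher with JQ-1 and 1 lower, and their median went from 1.49 to 0.77. Of 11 raised at least 4-fold and tested with JQ-1, 7 were called higher and 1 lower. These 11 include H3F3A, at 3.07 without JQ-1, whose value is uncertain as described below. Of the 13 genes lowered at least 2-fold, 7 were tested with JQ-1 and 6 were called lower again, with medians of −1.23 and −0.60. Larger changes are easier to call, and whether persistence differed with size was not tested. The interaction was called for 1177 of the 2211 raised genes, in 1136 of them towards a smaller response with JQ-1. This direction is partly fixed, because the samples without JQ-1 that chose the genes also enter the interaction.

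**Figure D1:**
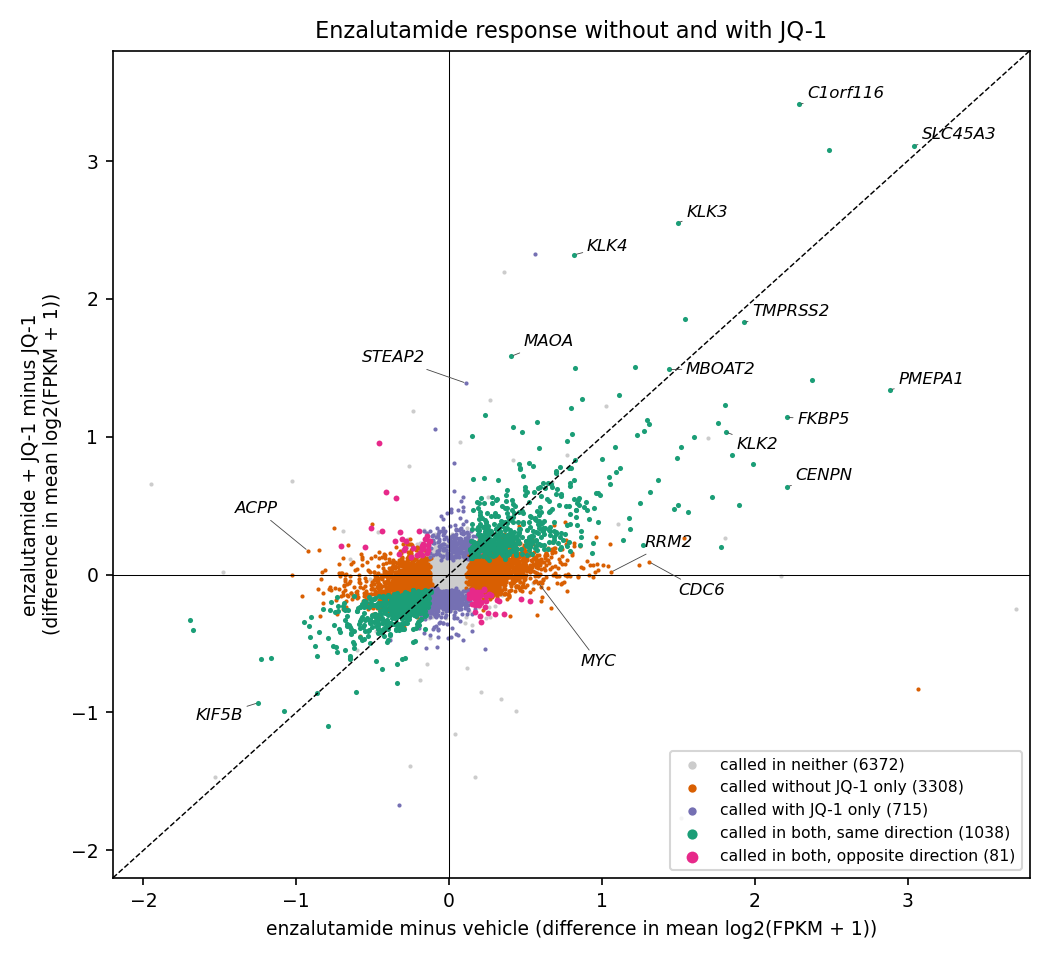
Each point is 1 of 11514 genes tested in both comparisons, with the difference in mean log2(FPKM + 1) between enzalutamide and vehicle on the horizontal axis and between enzalutamide with JQ-1 and JQ-1 alone on the vertical axis; 9 genes lie outside the axes. Most of the 3308 genes called without JQ-1 only lie along the horizontal line, whereas SLC45A3 and TMPRSS2 lie near the dashed line of equal responses and KLK3, KLK4 and C1orf116 lie above it.

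Most androgen-induced genes that could be tested were still raised by enzalutamide. Of 36 genes on a list of known androgen-induced genes, 29 had enough FPKM to be tested with JQ-1, and 23 of them were called higher and 1 lower, beside 6.38% higher and 9.49% lower of all genes tested. The median of the 29 was 0.65, and −0.03 over all genes. Without JQ-1, 27 of 32 tested members were called higher and 2 lower, against 19.3% of all genes in each direction, with a median of 1.01. The interaction was called for 23 of 33 members. In 9 the response was more positive with JQ-1 and in 14 less positive, beside 7.55% and 11.6% of all genes tested. In the counts 17 of 25 tested members were called higher with JQ-1 and none lower, against 3.16% and 1.34% of all genes (edgeR). JQ-1 alone had changed the base from which these genes started, as it changed 75.1% of all genes relative to vehicle. Of 28 tested members 17 were lower and 9 higher, beside 42.6% and 32.5% of all genes (limma). Genes that passed the filter on low FPKM through the treated groups alone are among those tested, and STEAP4, TRPM8 and ORM1 were under 1 FPKM in all 12 samples.

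**Figure D2:**
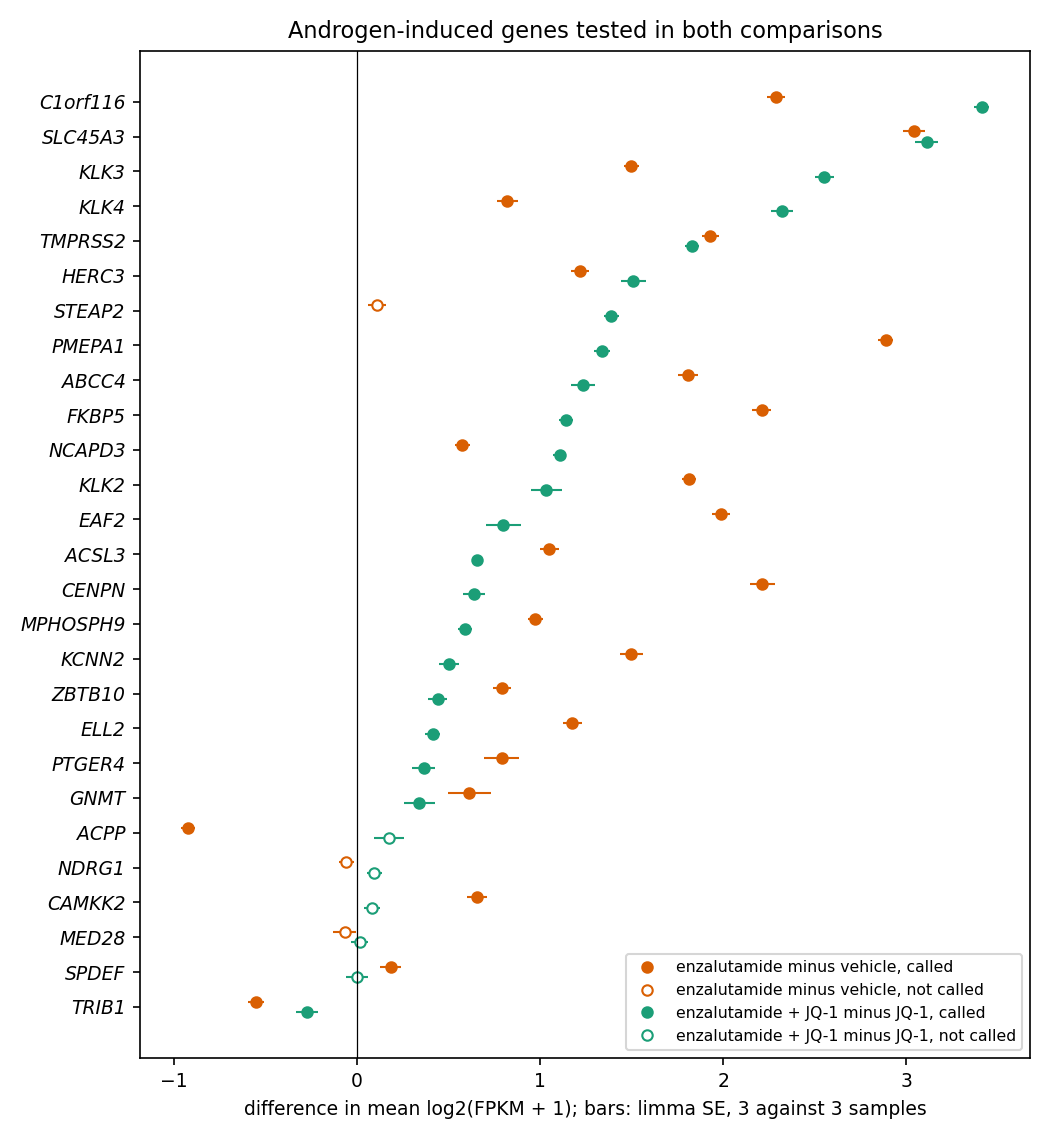
Difference in mean log2(FPKM + 1) with its standard error for 27 androgen-induced genes tested in both comparisons, without JQ-1 (orange) and with JQ-1 (green); filled circles were called and open circles were not. C1orf116 at 3.41 and SLC45A3 at 3.11 lead with JQ-1, while the green points of PMEPA1, CENPN, EAF2 and FKBP5 lie more than 1 below their orange points.

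The kallikreins of chromosome 19 showed a response from a base that JQ-1 had lowered. KLK3 (51358171 to 51364020, GRCh37) stood at 6.97, 7.61 and 6.45 FPKM in the 3 JQ-1 samples and at 44.9, 46.6 and 46.1 FPKM with both compounds. All 3 samples with enzalutamide lay above all 3 without it. The ratio of the means was 6.55 with JQ-1, against 2.83 without it, where 277, 282 and 289 FPKM with vehicle became 794, 810 and 796. The log2 difference was 2.55 ± 0.05 (SE; adjusted p = 2.68e-08, limma) with JQ-1 and 1.5 ± 0.04 without, an interaction of 1.05 (adjusted p = 7.52e-07). The relative response was larger with JQ-1, but the level with both compounds was 0.162 times that of vehicle and 0.0574 times that of enzalutamide alone.

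KLK4 (51409607 to 51414651), which encodes another secreted prostate protease, returned to its vehicle level. It was at 7.49, 6.54 and 7.83 FPKM with JQ-1 and at 38.6, 40.3 and 41.9 FPKM with both compounds, beside 41.0, 42.7 and 42.1 FPKM with vehicle. The samples with both compounds overlapped those with vehicle and were separate from those with JQ-1. Its log2 difference was 2.32 ± 0.06 with JQ-1 and 0.82 ± 0.06 without (adjusted p = 8.04e-07 for the interaction, limma). KLK2 (51364824 to 51383823) behaved differently. It stood at 1.45, 1.01 and 1.43 FPKM with JQ-1 and at 3.63, 3.78 and 3.65 FPKM with both compounds, which were separate groups but both far under the 29.5 ± 0.643 FPKM of vehicle. The ratio was 2.84 with JQ-1 and 3.60 without. On the log2(FPKM + 1) scale, which understates the change of genes near 1 FPKM, the difference was 1.03 ± 0.08 against 1.81 ± 0.04, an interaction of −0.78 (adjusted p = 0.000132, limma). In the counts, which have no such offset, its log2 fold change with JQ-1 was 1.61 ± 0.31 (adjusted p = 3.18e-05, edgeR).

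The start regions of KLK3 and KLK2 are shown because both genes lost nearly all of their level with JQ-1 and still rose with enzalutamide. RefSeq promoters from 250 bases before to 50 after the start of each gene were taken from assembly GRCh38.p14, which is not the build of the expression files. Capitals mark a pattern like an androgen response element, the half-sites GAACA and AGTGCT with 3 free bases between them, searched on both strands. C1orf116 is added as the protein-coding gene with the largest rise under JQ-1, with the half-site letters GGAACA in capitals. KLK3 is at chr19:50854665-50854964 and KLK2 at chr19:50873189-50873488, both on the plus strand, and C1orf116 is at chr1:207032707-207033006 on the minus strand.
KLK3: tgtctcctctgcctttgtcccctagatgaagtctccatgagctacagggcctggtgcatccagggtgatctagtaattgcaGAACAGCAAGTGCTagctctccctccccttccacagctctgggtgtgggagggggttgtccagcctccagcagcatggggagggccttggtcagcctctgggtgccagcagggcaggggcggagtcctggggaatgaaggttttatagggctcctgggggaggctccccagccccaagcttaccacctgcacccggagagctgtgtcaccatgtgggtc
KLK2: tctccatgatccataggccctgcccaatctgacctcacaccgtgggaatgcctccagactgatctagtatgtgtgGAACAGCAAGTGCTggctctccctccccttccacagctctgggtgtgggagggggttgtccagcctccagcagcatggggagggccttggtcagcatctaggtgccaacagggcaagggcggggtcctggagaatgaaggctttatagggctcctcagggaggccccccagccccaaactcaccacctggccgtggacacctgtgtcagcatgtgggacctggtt
C1orf116: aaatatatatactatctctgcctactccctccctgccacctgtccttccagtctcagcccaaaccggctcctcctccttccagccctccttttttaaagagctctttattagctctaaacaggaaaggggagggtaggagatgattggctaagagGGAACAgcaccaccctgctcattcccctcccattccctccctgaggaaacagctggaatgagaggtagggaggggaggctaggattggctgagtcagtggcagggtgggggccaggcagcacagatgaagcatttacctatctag

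The same 14 letters GAACAGCAAGTGCT begin 169 bases before the start of KLK3 and 175 bases before that of KLK2, and 225 of 294 bases (76.5%) were identical when both promoters were set side by side at this match without gaps. The pattern was chosen by hand and occurred in 15 of 35116 promoters (0.0427%). KLK3 and KLK2 were picked for display by name, and their start regions are alike, so no conclusion is drawn from its rarity. The letters GGAACA begin 95 bases before the start of C1orf116 and occurred in 14% of all promoters. For 7 of the 12 genes with the largest rise under JQ-1 the table held 9 promoters. Of these, 3 held AGAACA or GGAACA, which 26.2% of all promoters did, and for 9 of the 12 genes with the largest fall, 1 of 10 promoters did. These matches describe letters and not binding.

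**Figure D3:**
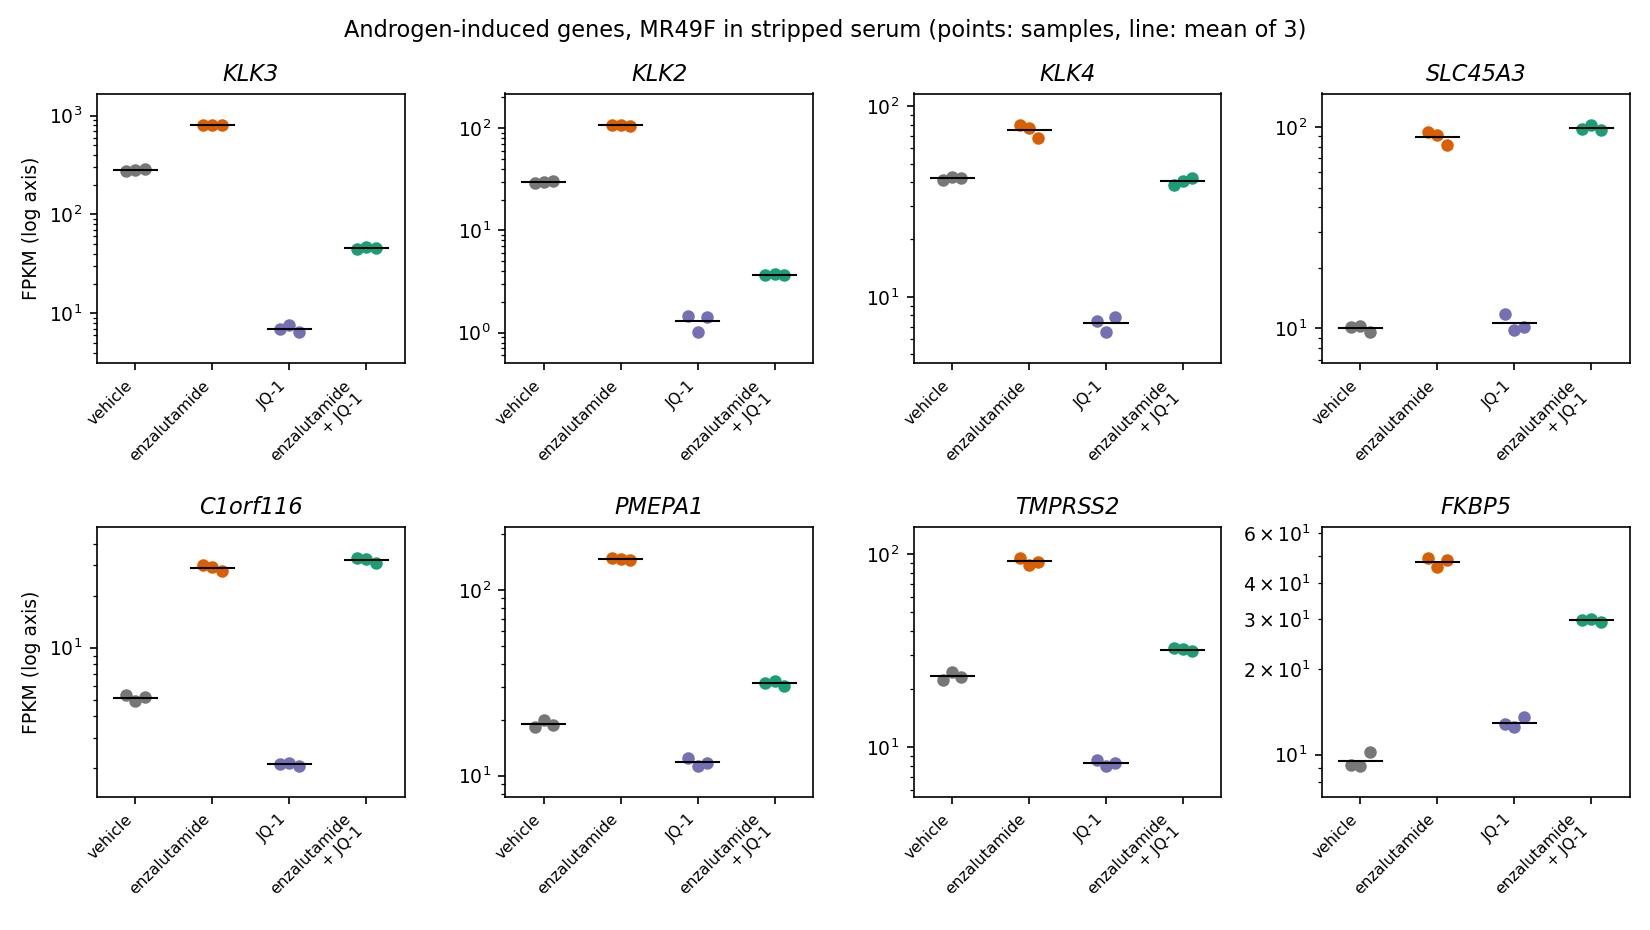
FPKM of 8 androgen-induced genes on a log axis in MR49F cells in stripped serum, with 1 point per sample and a line at the mean of 3 in each of the 4 groups. With both compounds, KLK3 and KLK2 stay under their vehicle level, SLC45A3 and C1orf116 reach or pass the level with enzalutamide alone, and PMEPA1, TMPRSS2 and FKBP5 lie between.

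For several androgen-induced genes the level reached with enzalutamide was the same or higher when JQ-1 was present. SLC45A3, a luminal solute carrier also known as prostein, was at 11.8, 9.77 and 10.2 FPKM with JQ-1 and at 97.7, 103 and 96.6 FPKM with both compounds. The levels without JQ-1 were 9.97 ± 0.367 and 89.5 ± 7.04 FPKM (SD, n = 3), so that JQ-1 left both the base and the response near those found in its absence. The log2 difference was 3.11 ± 0.06 with JQ-1 and 3.04 ± 0.06 without (interaction 0.07, adjusted p = 0.655, limma). C1orf116, an androgen-induced gene of little known function, rose from 2.12, 2.15 and 2.07 to 33.0, 32.6 and 30.9 FPKM, and all 3 samples with both compounds lay above the 3 with enzalutamide alone, which had 30.1, 29.3 and 27.7 FPKM. It had the largest log2 difference with JQ-1 among protein-coding genes picked by size, 3.41 ± 0.04 against 2.29 ± 0.05 without JQ-1.

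TMPRSS2, a surface protease whose androgen-driven promoter is often fused to ETS factors in prostate cancer, kept its response at a lower level. It was at 8.55, 8.02 and 8.26 FPKM with JQ-1 and at 32.5, 32.2 and 31.3 FPKM with both compounds, against 23.3 ± 1.02 with vehicle and 91.5 ± 3.52 with enzalutamide (SD, n = 3). The ratio was 3.86 with JQ-1 and 3.93 without, and the interaction was −0.10 (adjusted p = 0.257, limma). Other genes whose response was called in both comparisons with no called interaction were MBOAT2, an enzyme of phospholipid remodelling, C19orf48, the scaffold gene HOMER2 and AADAT, an enzyme of tryptophan and lysine breakdown. MBOAT2 went from 31.9, 31.6 and 31.7 to 91.8, 91.8 and 88.6 FPKM with JQ-1, above the 53.9 ± 1.06 FPKM of enzalutamide alone, with a log2 difference of 1.49 ± 0.03. AADAT stayed at 3.61 ± 0.152 FPKM with both compounds, 0.404 times vehicle. Its log2 difference was 1.09 ± 0.08 with JQ-1 and 1.31 ± 0.06 without. The offset of 1 FPKM understates changes at low FPKM, and with an offset of 0.1 the difference with JQ-1 was 1.56. In all 723 genes fell in this class of a kept response. They were counted among genes whose samples without JQ-1 did not overlap and that had at least 2 FPKM in the higher group there.

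For a further set of androgen-induced genes the response persisted but was smaller. FKBP5, a cochaperone of steroid receptors, was at 12.8, 12.5 and 13.5 FPKM with JQ-1 and at 29.8, 30.0 and 29.3 FPKM with both compounds. Its groups were separate, but enzalutamide alone gave 49.0, 45.5 and 48.2 FPKM, and the log2 difference fell from 2.21 ± 0.05 without JQ-1 to 1.14 ± 0.04 with it (interaction −1.07, adjusted p = 7.36e-07, limma). PMEPA1, a feedback inhibitor of TGF-β signalling, reached 148, 147 and 145 FPKM with enzalutamide alone and 31.5, 32.4 and 30.3 FPKM with both compounds, from 12.4, 11.3 and 11.7 with JQ-1. The log2 differences were 2.89 ± 0.04 and 1.34 ± 0.04. CENPN, a centromere protein, went from 2.21 ± 0.07 to 0.64 ± 0.06, and EAF2, an elongation factor partner, from 1.99 ± 0.05 to 0.80 ± 0.09. ELL2, ABCC4, ACSL3, KCNN2, MPHOSPH9, ZBTB10 and PTGER4 likewise were called higher in both comparisons, each with a called interaction below 0. CAMKK2, a kinase upstream of AMPK, was raised by 0.66 ± 0.05 without JQ-1 and had a difference of 0.08 ± 0.04 with it (adjusted p = 0.221, limma).

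Not all listed genes went with the majority. TRIB1, a pseudokinase, was lowered in both comparisons, by 0.55 without and by 0.28 with JQ-1 on the log2 scale. ACPP, which encodes prostatic acid phosphatase, was at 209 ± 1.40 FPKM with vehicle and 110 ± 2.04 FPKM with enzalutamide, and at only 1.85 ± 0.197 FPKM with JQ-1 and 2.21 ± 0.263 FPKM with both compounds (SD, n = 3), where the difference of 0.17 ± 0.08 was not called (adjusted p = 0.185, limma). ADAM7 was under 1 FPKM in all 6 samples with JQ-1 and was not tested there. It stood at 2.63, 2.50 and 2.85 FPKM with enzalutamide alone and at 0.0953, 0.194 and 0.102 FPKM with both compounds.

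STEAP2, a metalloreductase of prostate cells, headed the genes whose rise was called with JQ-1 and not without it. It was at 73.1, 71.4 and 73.2 FPKM with JQ-1 and at 192, 202 and 182 FPKM with both compounds, which overlapped the 192, 187 and 189 FPKM of vehicle. Its log2 difference was 1.39 ± 0.04 with JQ-1 and 0.11 ± 0.05 without (interaction 1.28, adjusted p = 1.19e-07, limma). ADAM2, a membrane protein of the ADAM family, COBLL1 and the clock repressor BHLHE40 showed the same order at 1.06 ± 0.04, 0.61 ± 0.04 and 0.57 ± 0.05 with JQ-1, each from a base that was lower with JQ-1 than with vehicle and to a level below vehicle. CMTM1 and OSR2, a zinc finger factor, were called lower with JQ-1 only, by 0.54 and 0.54. These 6 lead 210 genes called with JQ-1 and in the interaction but not without JQ-1.

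MAOA, ZBTB16, HERC3 and PTGFR were also among the protein-coding genes with the largest rise. MAOA, which breaks down monoamines, was at 49.6, 45.6 and 47.7 FPKM with JQ-1 and at 148, 142 and 144 FPKM with both compounds, against 199 ± 3.8 FPKM with vehicle, and its log2 difference of 1.58 ± 0.04 exceeded the 0.41 ± 0.04 without JQ-1 (interaction 1.18, adjusted p = 5.34e-08, limma). ZBTB16, a transcriptional repressor that steroid receptors induce, rose from 4.96, 5.40 and 5.12 to 20.9, 22.8 and 20.1 FPKM, a ratio of 4.13 with JQ-1 and 3.25 without. HERC3, a ubiquitin ligase, rose 3.24-fold and PTGFR, the prostaglandin F receptor, 3.40-fold with JQ-1. The rule also picked 2 small RNAs, SNORA18 and SCARNA16, with differences of 4.03 ± 1.02 and 2.33 ± 0.54. The call of SNORA18 was lost when any replicate but the first of the JQ-1 group was left out, in a fit of all 18 stripped-serum samples and without the filter (adjusted p up to 0.109, limma). That of SCARNA16 was lost when any replicate with both compounds was left out, with a pseudocount of 0.1 and without the filter (adjusted p up to 0.0896, limma). At most 1 read was counted on SCARNA16 in any of the 6 samples. SNORA18 was at 20, 0 and 0 FPKM with JQ-1 and at 32.9, 51.6 and 50.3 FPKM with both compounds, and at most 3 reads were counted on it in any of these 6 samples.

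Few androgen-repressed genes were expressed highly enough to be tested. On a list of 12, 5 genes were tested, of which 4 were called lower and 1 higher without JQ-1, beside 19.3% of all genes in each direction. With JQ-1 1 was called higher and none lower, beside 6.38% and 9.49%. CAMK2N1, an inhibitor of CaMKII, was lowered from 177 to 107 FPKM without JQ-1 and had 21.5 and 19.9 FPKM with JQ-1 and with both compounds, a difference of −0.11 ± 0.04 that was not called although the samples did not overlap (adjusted p = 0.118, limma). OPRK1, the κ-opioid receptor, had means of 2.02 and 1.66 FPKM there. Fewer RNA molecules per cell and fewer cells that carry them cannot be told apart in these bulk samples.

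Of 16 tested coregulators and pioneer factors, 7 were called lower and 2 higher with JQ-1, beside 9.49% and 6.38% of all genes, and 9 lower and 3 higher without, beside 19.3% in each direction. The medians were −0.11 and −0.19. GATA2, a pioneer factor that opens chromatin, was at 79.1, 84.4 and 86.7 FPKM with JQ-1 and at 49.1, 52.3 and 52.8 FPKM with both compounds, which were separate. Its difference was −0.69 ± 0.04 with JQ-1 and −0.44 ± 0.05 without (interaction −0.25, adjusted p = 0.0176, limma). HOXB13, a prostate homeobox factor, fell by 0.49 and the corepressor TLE3 by 0.59 with JQ-1, beside 0.63 and 0.65 without, and neither interaction was called. GRHL2, an epithelial factor, rose by 0.40 ± 0.04 and 0.39 ± 0.04. FOXA1, a pioneer factor of luminal cells, was at 159 FPKM with JQ-1 and 160 FPKM with both compounds, and the difference of 0.01 ± 0.03 was not called (adjusted p = 0.835, limma).

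Of 10 genes that respond to the glucocorticoid receptor, 8 were tested with JQ-1, and 6 were called higher and 1 lower, beside 6.38% and 9.49% of all genes, with a median of 0.32. The gene called lower was DUSP1, a MAP kinase phosphatase. Besides ZBTB16 the genes called higher were PER1, a clock gene, by 0.58 ± 0.05, NFKBIA, the inhibitor of NF-κB, by 0.43 ± 0.05, ERRFI1 by 0.33, MT2A by 0.31 ± 0.05 and TSC22D3 by 0.20 ± 0.06. MT2A and TSC22D3 were called lower without JQ-1, at −0.32 ± 0.07 and −0.55 ± 0.05, and both interactions were called. Without JQ-1, 5 of 10 were called higher and 3 lower, beside 19.3% of all genes in each direction. NR3C1, which encodes the glucocorticoid receptor, had a mean of at most 0.029 FPKM in each of the 4 groups. SGK1, a kinase that glucocorticoids induce, had means of 0.470 FPKM with JQ-1 and 0.422 FPKM with both compounds.

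**Figure D4:**
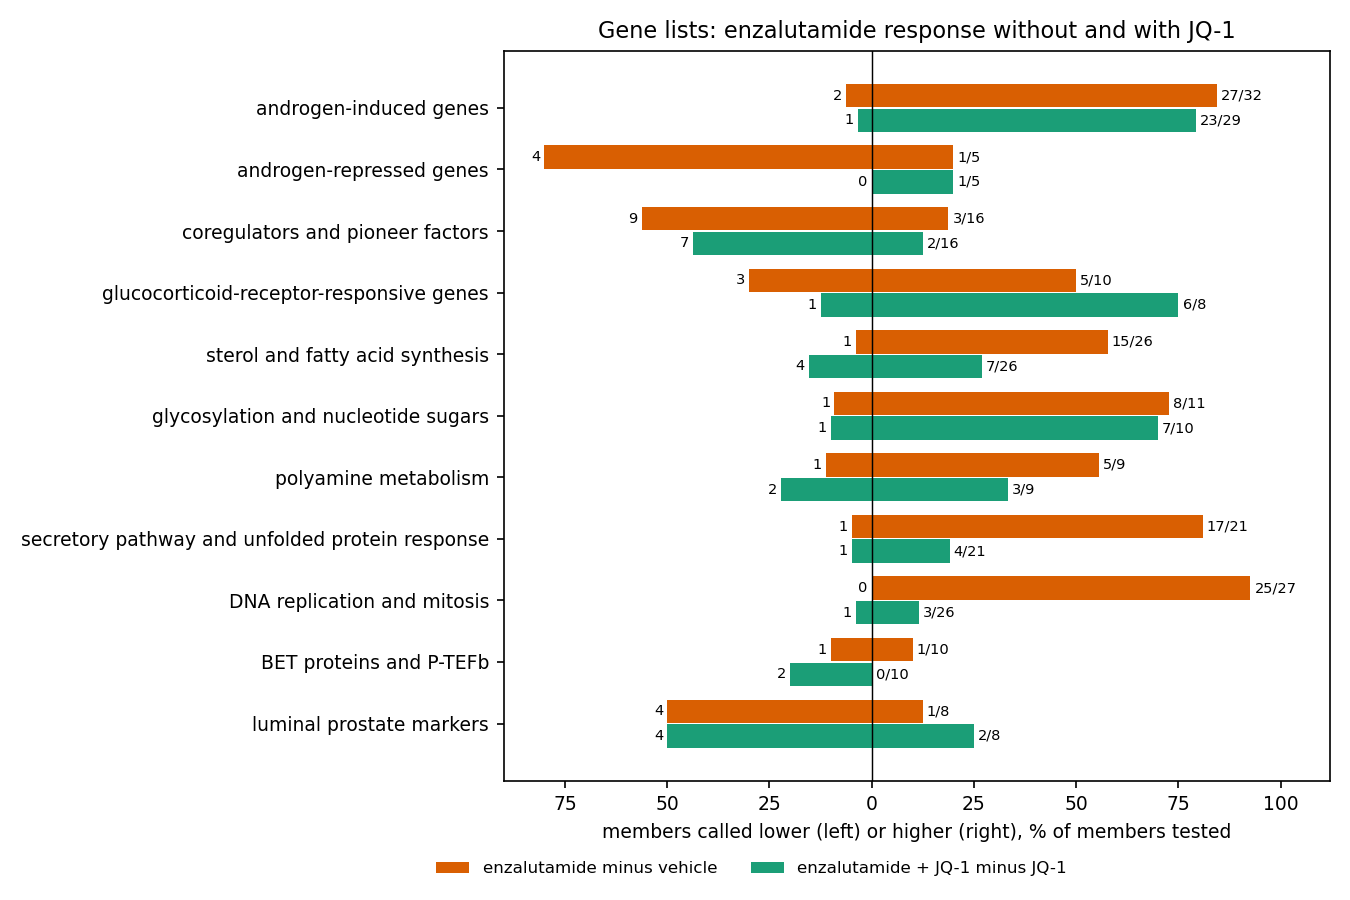
Share of the tested members of 11 gene lists called higher (right) or lower (left) by enzalutamide without JQ-1 (orange) and with JQ-1 (green), with the number called and tested beside the bars. The androgen-induced list went from 27 of 32 to 23 of 29 called higher, the replication and mitosis list from 25 of 27 to 3 of 26.

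DNA replication and mitosis genes were raised by enzalutamide without JQ-1, and few were called when JQ-1 was present. Without JQ-1, 25 of 27 were called higher and none lower, beside 19.3% of all genes in each direction, with a median of 0.67. With JQ-1, 3 of 26 tested members were called higher and 1 lower, beside 6.38% and 9.49% of all genes, and the median was 0.03. The interaction was called for 20 of 27, and in each the response was less positive with JQ-1, beside 11.6% of all genes. CDC6, which loads the replicative helicase, was at 3.17, 3.03 and 2.45 FPKM with JQ-1 and at 3.33, 3.18 and 2.87 FPKM with both compounds. These groups overlapped, whereas 4.78, 5.86 and 5.46 FPKM with vehicle and 14.8, 14.4 and 15.1 FPKM with enzalutamide did not. The difference was 0.09 ± 0.08 with JQ-1 and 1.31 ± 0.06 without (interaction −1.22, adjusted p = 2.49e-05, limma). RRM2, a subunit of ribonucleotide reductase, was at 3.07 ± 0.136 and 3.12 ± 0.156 FPKM with JQ-1 (SD, n = 3), a difference of 0.02 ± 0.06 against 1.06 ± 0.06 without.

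The 6 subunits of the MCM helicase behaved alike. Without JQ-1, MCM2 to MCM7 were raised by 0.59 to 1.00 on the log2 scale, and with JQ-1 their differences lay between −0.02 and 0.07, none of them called. MCM5, for example, was at 2.1, 1.69 and 1.91 FPKM with JQ-1 and at 2.03, 1.92 and 2.21 FPKM with both compounds. PCNA, the sliding clamp, had a difference of 0.11 ± 0.04 and MKI67, a proliferation marker, of 0.13 ± 0.04, and neither was called, although for both all 3 samples with both compounds lay above the 3 with JQ-1. The exceptions called higher were CDK1 at 0.24 ± 0.05 (adjusted p = 0.0158, limma), TOP2A at 0.18 and AURKB at 0.17, and CCNE2, a G1/S cyclin, was called lower at −0.25 ± 0.05.

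**Figure D5:**
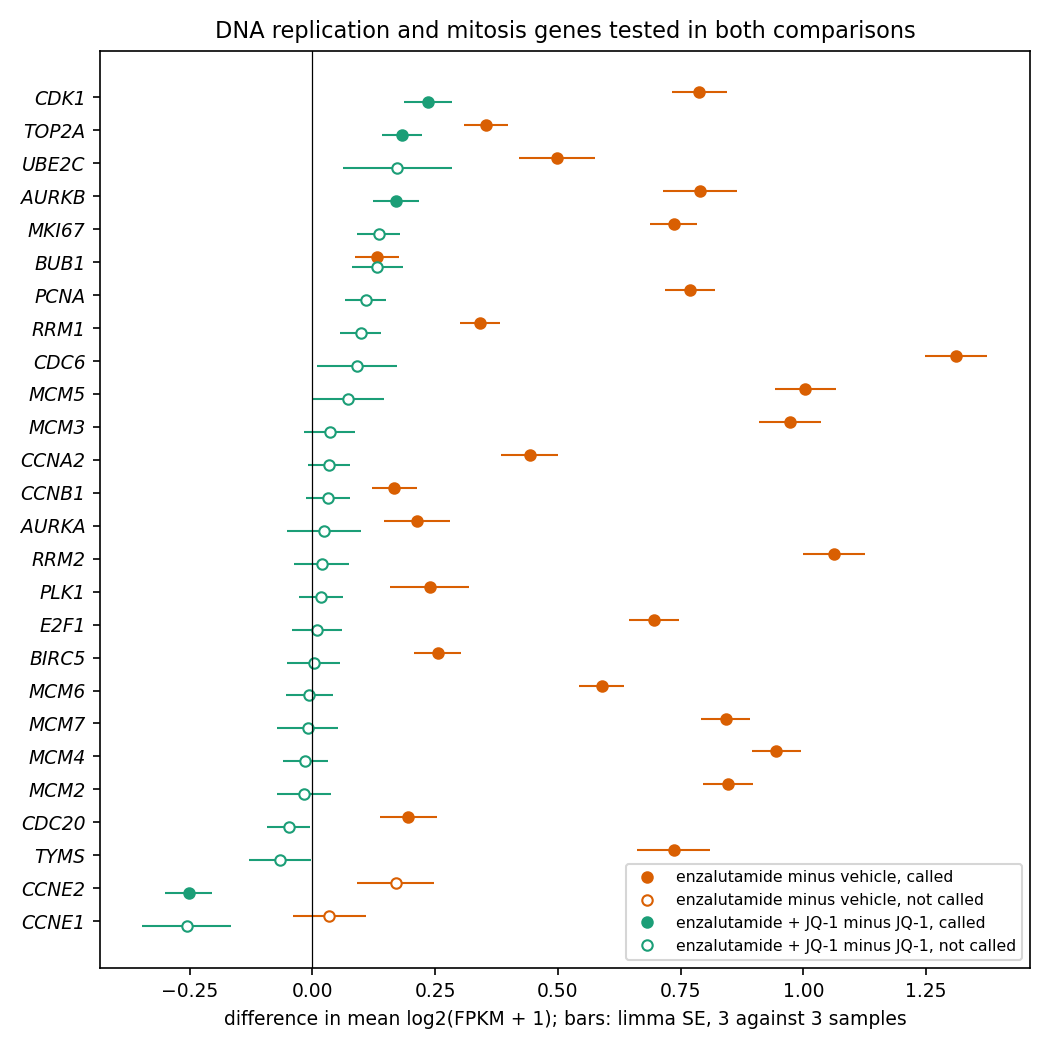
Difference in mean log2(FPKM + 1) with its standard error for 26 replication and mitosis genes tested in both comparisons, without JQ-1 (orange) and with JQ-1 (green); filled circles were called. Orange points reach 1.31 for CDC6, while green points lie between −0.26 and 0.24 and 22 of 26 are open.

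MYC, a growth-promoting transcription factor known to fall upon BET inhibition, was raised by enzalutamide only without JQ-1. It was at 64.4, 67.1 and 67.9 FPKM with vehicle and 108, 98.1 and 94.4 FPKM with enzalutamide. With JQ-1 it was at 35.3, 35.3 and 38.7 FPKM and with both compounds at 33.2, 35.1 and 36.3 FPKM, which overlapped (difference −0.06 ± 0.05, adjusted p = 0.430; interaction −0.64, adjusted p = 0.000188, limma). Of the genes with a lost response, MCCC2, an enzyme of leucine breakdown, had means of 29.4 and 71.1 FPKM without JQ-1 and of 10.9 and 11.5 FPKM with it, and FAM65B had 1.68 and 6.79 FPKM against 1.31 and 1.78. H3F3A also met the rule, but its transcripts have near-identical copies elsewhere in the genome and its FPKM ran from 0.00234 to 9.47 among the vehicle samples, so its value is uncertain. In all 1461 genes were called without JQ-1 and in the interaction but not with JQ-1. Only genes whose samples without JQ-1 did not overlap and that had at least 2 FPKM in the higher group there were counted.

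Fewer sterol and fatty acid synthesis genes were called higher with JQ-1 than without. Of 26 genes 15 were called higher and 1 lower without JQ-1, beside 19.3% of all genes in each direction, and 7 higher and 4 lower with it, beside 6.38% and 9.49%. The medians were 0.21 and 0.03, and the interaction was called for 13, in each with a less positive response under JQ-1, beside 11.6% of all genes. ELOVL7, an androgen-induced fatty acid elongase, was at 17.4, 17.2 and 16.9 FPKM with JQ-1 and at 33.1, 35.2 and 31.9 FPKM with both compounds, a difference of 0.92 ± 0.04 beside 1.09 ± 0.06 without JQ-1 (interaction adjusted p = 0.144, limma). ACACA, the acetyl-CoA carboxylase that starts fatty acid synthesis, rose by 0.38 with JQ-1 and by 0.61 without. SREBF1, the lipogenic transcription factor, was lower with both compounds (137, 143 and 148 FPKM) than with JQ-1 (182, 185 and 187 FPKM), a fall by 0.37 on the log2 scale.

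Of the genes of glycosylation and nucleotide sugars, 8 of 11 were called higher without JQ-1 and 7 of 10 with it, beside 19.3% and 6.38% of all genes. In each setting 1 was called lower, beside 19.3% and 9.49%, and the medians were 0.35 and 0.21. With JQ-1 the counts called only 1 of 10 higher and none lower, beside 3.16% and 1.34% of all genes (edgeR). UAP1, which makes UDP-N-acetylglucosamine, was at 26.0, 25.7 and 27.9 FPKM with JQ-1 and at 41.1, 40.9 and 40.2 FPKM with both compounds. Its difference of 0.60 ± 0.04 was near the 0.51 ± 0.04 without JQ-1 (interaction adjusted p = 0.275, limma). GALNT7, an enzyme of O-glycan synthesis, rose by 0.59 ± 0.05 and 0.70 ± 0.04. ST6GALNAC1, an androgen-regulated sialyltransferase, was at 5.13 FPKM with enzalutamide alone and at 0.224 FPKM with both compounds. It was under the FPKM filter with JQ-1, and its interaction was −2.01 (adjusted p = 4.80e-08, limma). The offset of 1 FPKM understates changes at the level found with both compounds, so how much response was lost cannot be read from this value.

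Among 9 polyamine genes, 3 were called higher and 2 lower with JQ-1, beside 6.38% and 9.49% of all genes, and 5 higher and 1 lower without, beside 19.3% in each direction. SAT1, which acetylates spermidine and spermine for export, was at 41.1, 41.8 and 37.7 FPKM with JQ-1 and at 86.1, 82.5 and 81.0 FPKM with both compounds. Its difference of 1.03 ± 0.04 was larger than the 0.48 ± 0.08 without JQ-1 (interaction 0.55, adjusted p = 0.00227, limma). AMD1, which supplies the aminopropyl donor, rose by 0.36 ± 0.05, and spermidine synthase SRM, raised by 0.50 without JQ-1, had 36.5 and 36.1 FPKM with it.

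Secretory pathway and unfolded protein response genes were raised in 17 of 21 cases without JQ-1 and in 4 with it, beside 19.3% and 6.38% of all genes. In each setting 1 was called lower, beside 19.3% and 9.49%. The median went from 0.31 to 0.04, and the interaction was called for 16, in 14 with a less positive response under JQ-1, beside 11.6% of all genes. ATF4, the effector of the integrated stress response, and its target DDIT3 were among those that rose with JQ-1, by 0.45 ± 0.04 and 0.48 ± 0.05, and HERPUD1 rose by 0.40 ± 0.04. ASNS, an ATF4 target, rose by 0.22. HSPA5, the main chaperone of the endoplasmic reticulum, was raised by 0.17 without JQ-1 and lowered by 0.27 with it, from 156, 158 and 160 to 132, 132 and 130 FPKM (interaction −0.44, adjusted p = 0.000335, limma). PDIA4, a disulfide isomerase, had 91.1 and 88.1 FPKM with JQ-1 and was not called there.

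Fewer genes were lowered than raised at least 2-fold by enzalutamide in the presence of JQ-1, 3 against 34. KIF5B, the heavy chain of kinesin-1, had the highest FPKM among the 12 largest falls, at 221 ± 6.09 FPKM with JQ-1 and 115 ± 3.24 FPKM with both compounds (SD, n = 3). The groups were separate, and the difference was −0.93 ± 0.03 with JQ-1 and −1.25 ± 0.05 without (interaction 0.32, adjusted p = 0.00282, limma). PLD1, a phospholipase, went from 3.83, 3.89 and 3.96 to 1.5, 1.41 and 1.5 FPKM with JQ-1, and BAMBI, a decoy receptor of TGF-β signalling, from 22.8, 22.9 and 23.5 to 12.9, 12.8 and 11.2 FPKM. Their differences of −0.99 ± 0.05 and −0.86 ± 0.05 were close to the −1.08 ± 0.07 and −0.87 ± 0.06 without JQ-1, and neither interaction was called (adjusted p = 0.5 and 0.949, limma).

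Several lowered genes started from a level that JQ-1 had raised. CEND1, a neuronal cell cycle exit gene, was at 1.65 ± 0.139 FPKM with vehicle, 6.43 ± 0.696 with JQ-1 and 2.46 ± 0.232 with both compounds (SD, n = 3). ARRDC4, an arrestin-like glucose-responsive gene, was at 29.6, 27.9 and 26.3 FPKM with JQ-1 and at 16, 15.4 and 15.7 FPKM with both compounds, against 7.88 ± 0.227 with vehicle, and its fall by 0.79 exceeded that by 0.34 without JQ-1 (interaction adjusted p = 0.00458, limma). LASP1, an actin-binding protein, and the homeobox factor PITX1 fell by 0.65 and 0.86, and ANKRD16 fell by 0.62. HIST1H1T, a linker histone, fell by 0.86 and was under the FPKM filter without JQ-1. MIR1307, at 22.0, 34.5 and 61.7 FPKM with JQ-1 and 15.2 FPKM or less with both compounds, and the readthrough transcript C17orf61-PLSCR3 were also picked, but no read was counted on MIR1307 in any of these 6 samples and at most 2 on C17orf61-PLSCR3.

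Of 10 genes for BET proteins and P-TEFb, none was called higher with JQ-1, beside 6.38% of all genes, and 2 were called lower, beside 9.49%, CDK9 by 0.14 and HEXIM1 by 0.13 (limma), and edgeR called neither. HEXIM1 was at 83.8, 87.1 and 89.6 FPKM with JQ-1 and at 78.3, 80.8 and 78.4 FPKM with both compounds, but its call was lost when any of 5 of the 6 replicates was left out, and its adjusted p reached 0.126 over all alternatives (limma). Of 5 reference genes, ACTB was called higher by 0.11 and GAPDH lower by 0.15, which gives the size of change that passed the threshold among abundant genes.

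The counts gave fewer calls than the FPKM. With JQ-1, 482 of 10708 genes (4.50%) were called by edgeR, 338 higher and 144 lower, and 57 changed at least 2-fold, 50 of them higher. The share of higher calls, 70.1%, was far above that of the FPKM. Of the 1865 genes called by FPKM, 1716 were tested in the counts, 1582 had an estimate in the same direction and 319 were also called. The counts called the interaction for 104 of 11625 genes (0.895%), a number that was 293 without replicate 3 of the enzalutamide group, 61 without replicate 2 of both compounds and 68 without replicate 3 of the JQ-1 group. DESeq2 called 197 genes with JQ-1, and edgeR 233 in a fit of all 18 stripped-serum samples. Without JQ-1 the counts called 808 of 11131 genes (7.26%), with 4.38% higher, and 414, 491 and 458 without vehicle replicate 1, vehicle replicate 2 and enzalutamide replicate 2. With both compounds against vehicle they called 41.5%, with 20.3% higher. By counts, 445 genes were raised without JQ-1 and tested with it, and 125 of them (28.1%) were called higher again, against 3.24% of all genes, as were 56 of 294 lowered genes (19.0%), against 1.37% called lower. KLK3, at 25, 25 and 20 reads with JQ-1 and 80, 126 and 130 with both compounds, had a log2 fold change of 2.77 ± 0.17 and SLC45A3 of 3.23 ± 0.11, each past the threshold. CDC6 had only 9 to 17 reads per sample, and its log2 fold change of 0.33 ± 0.34 was not called (adjusted p = 0.716, edgeR).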

How the data were processed

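RNA-seq libraries of MR49F and V16D cells, 30 in all with 3 per group, were used as deposited. Per the labels and methods, the authors aligned reads to hg19 with TopHat2 2.0.9, and deposited FPKM per transcript from Cufflinks 2.1.1 and raw read counts per gene from HTSeq. FPKM were summed over the transcripts of each gene symbol. The share of assigned reads that fell on no gene was large in stripped serum, where 5.13% to 7.66% lay on genes. Whether reads were counted by strand, and on which, is not given in the sources used here. Of 60 genes with at least 50% of exon bases overlapped by a gene on the opposite strand, 43.3% held a count share more than 4-fold above that in full serum relative to FPKM, against 0.788% of 5329 genes without overlap, so the FPKM were tested first.

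Differences were tested with limma 3.58.1 (R 4.3.3) on log2(FPKM + 1), with a variance trend, over genes that reached 1 FPKM in 3 or more samples of the compared groups, and p-values were two-sided and Benjamini-Hochberg adjusted. The reads counted per gene were tested with edgeR 4.0.16 (quasi-likelihood, TMM, at least 10 reads by filterByExpr). DESeq2 1.42.0, other pseudocounts, filters and scalings, a replicate block and leaving out each replicate were alternatives. The alternative without small RNA genes was chosen after seeing the data. The fits were tested on simulated data.

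Named genes were the 12 largest changes in each direction with JQ-1 among called genes whose samples did not overlap and that had at least 2 FPKM, the 6 largest each of lost, kept and JQ-1-only responses, KLK2, FKBP5, MYC and HEXIM1, and members of 16 gene lists called with JQ-1 or in the interaction. FOXA1, NR3C1 and SGK1 fall outside this rule and were chosen after their values were seen. Some genes that the rule picked are not reported here. The comparison and the lists were chosen with earlier results of these data known. Promoters came from the RefSeq table of GRCh38.p14, and gene coordinates from GENCODE 44 on GRCh37. Sequence depth limits the counts, and FPKM carry no depth of their own.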

Additional observations from a re-analysis of the deposited data

Results flagged for a closer look

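The response to enzalutamide differed with and without JQ-1 for 2389 genes by the interaction test (limma, adjusted p of at most 0.05), and the values below are its log2 differences, the response with JQ-1 minus that without. Among androgen-linked genes it was above 0 for KLK4 (1.5), STEAP2 (1.28), C1orf116 (1.12), ACPP (1.10), KLK3 (1.05) and HERC3 (0.294), and below 0 for KLK2 (−0.778) and FKBP5 (−1.07). For ACPP a fall without JQ-1 had no called counterpart at a level near 2 FPKM.

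Genes with a more positive response under JQ-1 also included MAOA (1.18), ADAM2 (1.15), PTGFR (0.673), COBLL1 (0.572), BHLHE40 (0.472), KIF5B (0.321) and ZBTB16 (0.311). For KIF5B this was a smaller fall.

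The response was less positive for FAM65B (−1.28), CDC6 (−1.22), MCCC2 (−1.17), RRM2 (−1.04), CMTM1 (−0.775), MYC (−0.645), ARRDC4 (−0.445), OSR2 (−0.382), LASP1 (−0.308) and GATA2 (−0.251). MIR1307 (−6.45) and H3F3A (−3.90) had the widest spread between replicates of these genes, and the first had no counted read in the samples with JQ-1.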

How the results depend on the processing

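With single replicates left out, the FPKM counts of called genes ran from 897 to 1648 with JQ-1, from 3651 to 4243 without, from 1756 to 2397 for the interaction and from 609 to 1016 for persisting genes, and the medians of raised and lowered genes with JQ-1 from 0.05 to 0.0738 and from −0.113 to −0.0886. The median of raised genes was 0.0729 without replicate 1 of the enzalutamide group and 0.0738 without replicate 1 of the vehicle group. In the counts the ranges were 333 to 426, 414 to 910, 61 to 293 and 131 to 179 (edgeR). DESeq2 called 197 genes with JQ-1, 387 without, 53 in the interaction and 84 that persisted. A fit of all 18 stripped-serum samples called 233 by counts with JQ-1, and counts without a filter gave 182 in the interaction. Whether same-numbered samples deviated together differed by measure and comparison. In FPKM r was 0.205, 0.0902 and −0.0653 between the JQ-1 groups, with a mean of 0.0766 beside −0.0385 for unlike numbers. Without JQ-1 these means were −0.137 and 0.0684. In the counts they were 0.0104 and −0.0052 with JQ-1, and 0.111 and −0.0548 without. Replicate numbers were not taken as pairs in the main fits. With the replicate block FPKM gave 1867, 4382, 2221 and 984 genes and the counts 524, 1323, 129 and 236. Median-centring left 40.3% of calls with JQ-1 higher. RRM2 changed sign with JQ-1, to −0.00837 without JQ-1 replicate 1 and −0.0119 without replicate 1 of both compounds, the lowest of a range up to 0.039. Of 613 values for named genes under alternatives, 586 kept direction and side of the threshold, 25 were no longer called (SNORA18, SCARNA16, MIR1307 and HEXIM1) and 2 reversed. The causes were not tested.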

Other observations

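DHT, a natural androgen, was also given with JQ-1, at 1 nM for the same 24 h. Those samples shared the JQ-1 controls, so values are given side by side only. KLK3 had a mean of 161 FPKM with DHT and JQ-1 beside 45.9 with enzalutamide and JQ-1 and 7.01 with JQ-1. SLC45A3 was at 239, 99.1 and 10.6 FPKM and FKBP5 at 290, 29.7 and 12.9 FPKM in the same order. PTGFR at 9.53 and ADAM2 at 24.9 FPKM with DHT and JQ-1 were below the 10.7 and 42.9 FPKM with enzalutamide and JQ-1. PLD1 was at 0.135 FPKM with DHT and JQ-1, beside 1.47 and 3.89, and KIF5B at 64.9 FPKM, beside 115 and 221.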
